A study of Triticum aestivum and Aegilops tauschii and Triticum carthlicum with 18 samples.

Results

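The wheat array carries 4 probe sets, of 61179 that are not controls, that form 1 cluster by identifier. All of them are annotated as LOC543261, with the synonyms TUB and Tubb5, a beta-tubulin gene. That gene is placed on chromosome 1A from 502052638 to 502056116 in IWGSC CS RefSeq v2.1. Which homoeologous copy each probe set measures was not tested. The probe sets are Ta.214.1.S1_at and Ta.214.1.S1_x_at, named the S1 pair here, and Ta.214.2.A1_at and Ta.214.2.A1_x_at, named the A1 pair. The suffix x_at marks probe sets in which some probes can bind other transcripts as well. Members were taken by identifier, but the cluster was chosen by the levels of Ta.214.1.S1_at and Ta.214.2.A1_at in the parents, which differ in opposite directions. Differences that use the parents' own arrays are therefore descriptions without a test.

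Beta-tubulin joins alpha-tubulin in the dimers that polymerize into microtubules. In plant cells microtubules form the spindle and the phragmoplast and guide the deposition of cellulose in the wall. Each tubulin is encoded by a gene family, and an allopolyploid carries homoeologous copies from every parental genome. Tubulin transcripts are widely used as house-keeping references, to which the level of another transcript is related, and such a use requires the same level in every sample compared.

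Expression was measured in the second leaf of seedlings at the 3-leaf stage, with days of 12 h at 22 °C and nights at 20 °C. The 18 arrays form 9 groups with 2 biological replicates each, and each replicate was a pool of 10 plants. The parents were Triticum turgidum ssp. durum cv. Inbar (TTR04) and T. turgidum ssp. carthlicum (TTH01), both tetraploid (BBAA), and Aegilops tauschii line TQ27, a diploid (DD). Allo-AT5 (from TTR04) and Allo-AT9 (from TTH01) are allohexaploid lines made by crossing the tetraploid with TQ27 and doubling the genome with colchicine, and they were sampled at the selfed generations S4 and S5. Only plants with intact chromosome sets by genomic in situ hybridization were used. The mid-parent values MPV5 and MPV9 are arrays of parental RNA mixed at 2 parts of tetraploid to 1 part of diploid. The lines are thus 1 synthesis each, and they share the TQ27 parent.

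Levels are log2 values after robust multichip averaging (RMA). An expressed probe set had both arrays of a group at 4.54 or more, and 29674 probe sets were expressed in at least 1 group. Of 33 probe sets for leaf mesophyll genes 15 were expressed, with a median of 4.45 for the highest group means, and the oxygen-evolving enhancer OEE1 was among the high ones at 11.9 to 13.4 on all arrays. Of 18 histone probe sets, which mark dividing cells, 4 were expressed, none with a group mean above 6.06 and with a median of 3.72. Arrays fell into a high and a low band by the BioC hybridization control (2 probe sets averaged), with 8 arrays at 8.77 to 9.66 and 10 at 5.67 to 7.28. The arrays of Allo-AT5 S5 were both in the low band, and the other 8 groups had an array in each. The arrays of Allo-AT5 S5 were also unusually close to each other, with an SD of the replicate difference of 0.241 over probe sets against 0.640 to 1.08 in the other groups. In leaf pools a lower level per cell and fewer cells of a type cannot be told apart.

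All 4 TUB probe sets were expressed in the hexaploid lines and the mixtures, but the S1 pair was lowest in the diploid and the A1 pair was lowest in the tetraploids. Ta.214.1.S1_at read 5.43 and 4.78 in TQ27, 6.32 and 7.90 in TTR04, and 8.23 and 8.91 in TTH01. The mixtures read 5.84 and 6.91 (MPV5) and 7.61 and 8.30 (MPV9). The lines read 6.47 and 7.31 (Allo-AT5 S4), 7.52 and 7.48 (Allo-AT5 S5), 7.11 and 7.76 (Allo-AT9 S4), and 6.49 and 7.79 (Allo-AT9 S5). Both TQ27 arrays were below the other 16, and the arrays of the lines lay between those of TQ27 and TTH01. In ascending order of the mean the groups were TQ27, MPV5, Allo-AT5 S4, TTR04, Allo-AT9 S5, Allo-AT9 S4, Allo-AT5 S5, MPV9 and TTH01. Neighbours in this order had overlapping arrays, except TQ27 with MPV5 and Allo-AT5 S5 with MPV9.

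Ta.214.1.S1_x_at had the same order of groups. It read 5.88 and 5.29 in TQ27, 6.39 and 7.86 in TTR04, 8.35 and 8.98 in TTH01, 6.06 and 7.26 in MPV5, and 7.58 and 8.40 in MPV9. In the lines it read 6.53 and 7.49 (Allo-AT5 S4), 7.72 and 7.75 (Allo-AT5 S5), 7.02 and 7.94 (Allo-AT9 S4), and 6.66 and 7.97 (Allo-AT9 S5). Here TQ27 and MPV5 were the only neighbours without overlap.

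In the A1 pair the parents stood the other way round. Ta.214.2.A1_at read 9.09 and 7.40 in TQ27, but 4.31 and 4.28 in TTR04 and 3.46 and 3.82 in TTH01, so that neither tetraploid reached the expression level on either array. The annotated position is on chromosome 1A, and the tetraploids (BBAA) carry the A genome while TQ27 (DD) does not. The mixtures read 6.50 and 7.84 (MPV5) and 6.89 and 7.35 (MPV9). The lines read 6.42 and 7.69 (Allo-AT5 S4), 7.92 and 7.84 (Allo-AT5 S5), 7.22 and 7.93 (Allo-AT9 S4), and 7.03 and 8.48 (Allo-AT9 S5). The 12 arrays of lines and mixtures did not overlap the 4 tetraploid arrays. They did overlap TQ27, and no order among lines, mixtures and TQ27 held beyond the spread of the arrays between neighbours.

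Ta.214.2.A1_x_at was expressed in the tetraploids as well. It read 8.83 and 7.24 in TQ27, 4.91 and 5.46 in TTR04, and 5.12 and 5.13 in TTH01. The mixtures read 6.04 and 7.68 (MPV5) and 6.92 and 7.27 (MPV9). The lines read 6.04 and 7.51 (Allo-AT5 S4), 7.72 and 7.60 (Allo-AT5 S5), 6.68 and 7.83 (Allo-AT9 S4), and 6.72 and 8.33 (Allo-AT9 S5). Again the tetraploids lay below all other arrays, while the lines and mixtures overlapped TQ27.

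**Figure D1:**
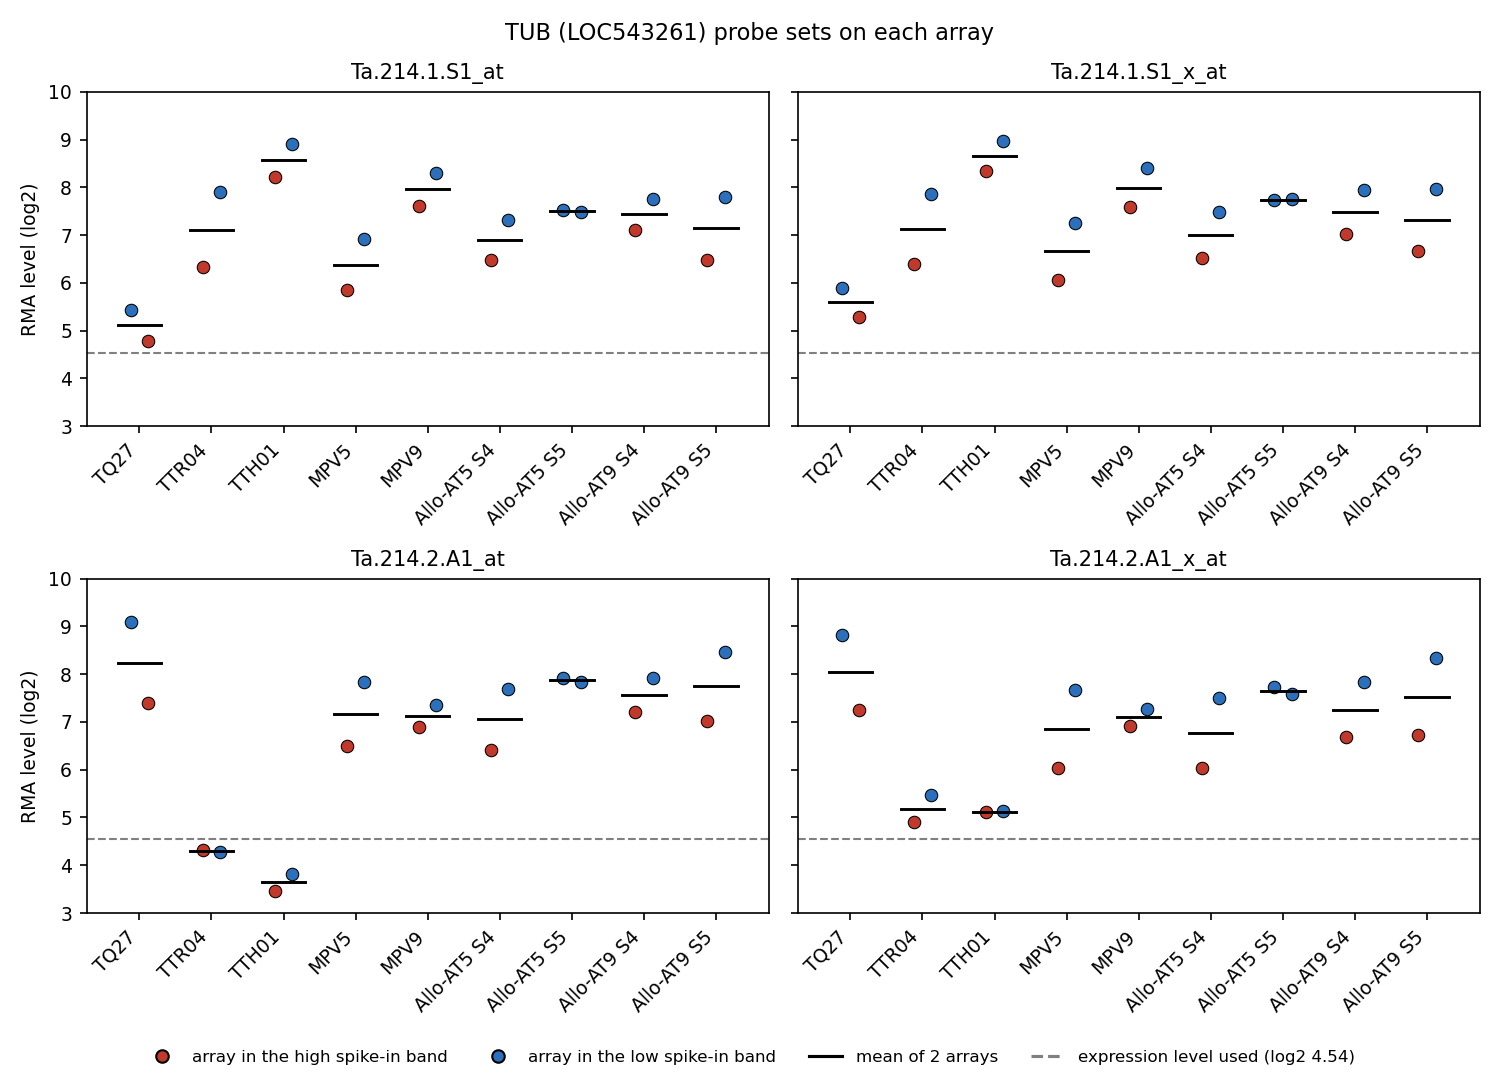
RMA level (log2) of each TUB probe set on every array, by group, with replicate 1 left and replicate 2 right, bars for the mean of 2 arrays, colour for the spike-in band and a dashed line at the expression level of 4.54. The S1 pair is lowest in TQ27, the A1 pair is lowest in TTR04 and TTH01, and in 7 of the 8 groups with an array in each band the low-band array is higher for all 4 probe sets.

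By ploidy, the probe sets of this cluster gave opposite rankings. For Ta.214.1.S1_at the diploid arrays lay at 4.78 and 5.43, the tetraploid arrays at 6.32 to 8.91 (median 8.06, 4 arrays) and the allohexaploid arrays at 6.47 to 7.79 (median 7.40, 8 arrays). For Ta.214.2.A1_at they lay at 7.40 and 9.09, at 3.46 to 4.31 (median 4.05) and at 6.42 to 8.48 (median 7.77). The hexaploid arrays thus lay within the tetraploid range for the S1 probe set and above it for the A1 probe set.

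As log2 differences, Ta.214.1.S1_at was 2.00 (SE 0.58) higher in TTR04 than in TQ27 and 3.46 (SE 0.58) higher in TTH01. For Ta.214.1.S1_x_at the differences were 1.54 and 3.07 (SE 0.61). Ta.214.2.A1_at had fitted differences of -3.95 for TTR04 and -4.60 for TTH01 (SE 0.63), and since both tetraploids were under the expression level, the least difference is 3.70 in either case. Ta.214.2.A1_x_at had -2.85 and -2.91 (SE 0.71). These values are what singled the cluster out. Between the tetraploids, TTR04 minus TTH01 was -1.46 and -1.54 for the S1 pair and 0.06 for Ta.214.2.A1_x_at, while Ta.214.2.A1_at was not expressed in either. Against the tetraploid parent, Ta.214.2.A1_at was higher in every line, by at least 2.51 (Allo-AT5 S4), 3.34 (Allo-AT5 S5), 3.03 (Allo-AT9 S4) and 3.21 (Allo-AT9 S5).

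The probe sets of a pair followed each other closely. Over the 9 group means Pearson's r was 0.994 within the S1 pair and 0.983 within the A1 pair, against -0.53 between Ta.214.1.S1_at and Ta.214.2.A1_at. When the group means were taken out, the deviations of the replicate arrays of these last probe sets had an r of 0.737, and r was 0.737 to 0.865 for the 4 combinations across the pairs. The negative r across groups contains the parental levels that chose the cluster. Over the 6 groups of lines and mixtures r across the pairs was positive, at 0.26 for Ta.214.1.S1_at with Ta.214.2.A1_at and up to 0.57 for the other combinations. These correlations are descriptions over the same arrays, and probe sets of a pair stand for 1 cluster sequence.

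The mixtures provide a check of how the arrays sum the parental RNA. A mixture computed from the parental means on the linear scale, at 2 parts to 1, drew 11.1% of its signal from TQ27 for Ta.214.1.S1_at in MPV5 and 4.35% in MPV9. For Ta.214.2.A1_at these shares were 88.5% and 92.4%, although TQ27 gave the smaller part of the RNA. The measured mixtures differed from the computed ones by -0.32 and -0.09 for Ta.214.1.S1_at, -0.11 and -0.17 for Ta.214.1.S1_x_at, 0.33 and 0.35 for Ta.214.2.A1_at, and 0.05 and 0.31 for Ta.214.2.A1_x_at (MPV5 and MPV9). All 8 differences were smaller than the pooled SD of replicates, which was 0.66 to 0.81 log2 units. That SD is a loose measure here and not the error of these differences. Over expressed probe sets the replicate differences of MPV5 correlated with those of TTR04 (r = 0.853), and those of MPV9 with those of TTH01 (r = 0.744). Since tetraploid levels under the expression level enter the sums for Ta.214.2.A1_at, its computed mixtures are approximate.

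**Figure D2:**
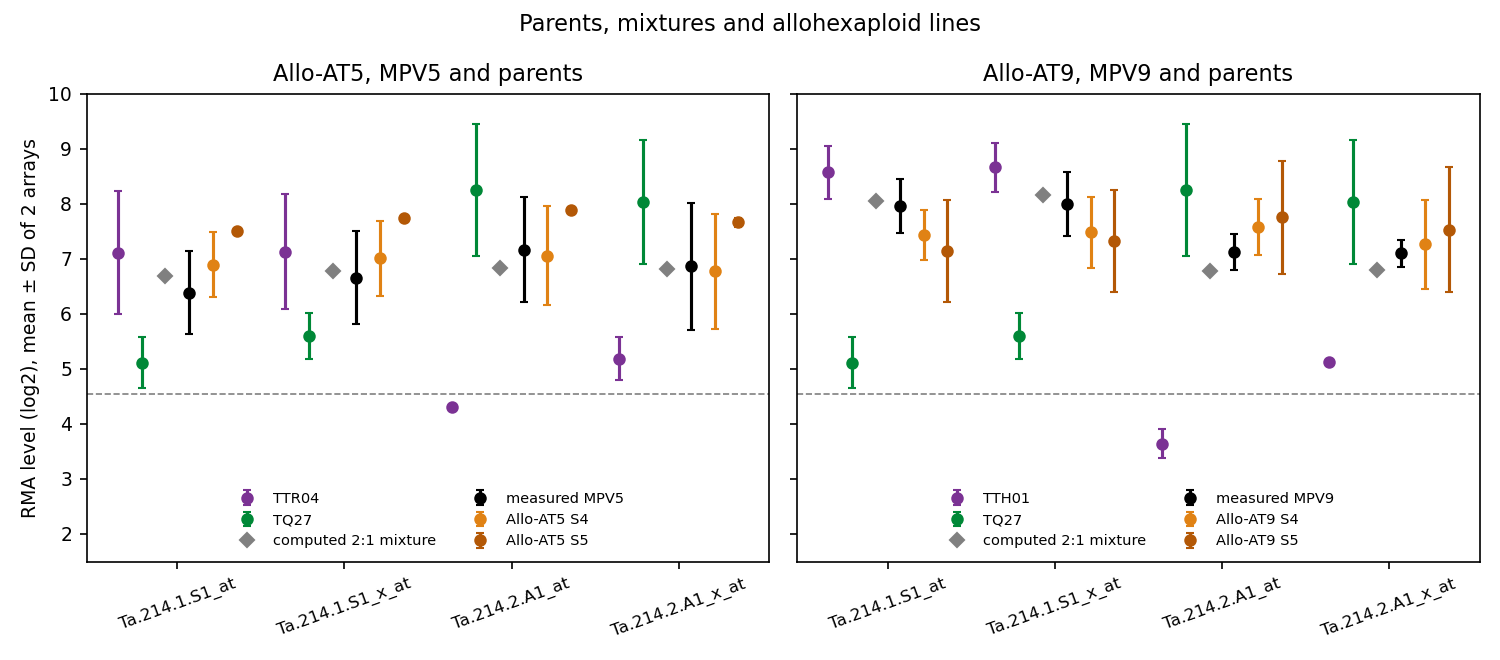
RMA level (log2, mean ± SD of 2 arrays) of the TUB probe sets in each tetraploid parent, TQ27, the mixture computed from the parents (diamond, no error), the measured MPV and the lines at S4 and S5, with Allo-AT5 left and Allo-AT9 right. Computed and measured mixtures differ by at most 0.35, and the lines differ from the measured mixtures by up to 1.13.

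Comparison of the lines with their MPV asks whether the TUB probe sets read the level of the summed parents in the hexaploids. None of the 4 TUB probe sets passed the test (limma, adjusted p under 0.05) in any of the 4 comparisons. The background was low, with 0% (Allo-AT5 S4), 0.0115% (Allo-AT5 S5), 0.191% (Allo-AT9 S4) and 0.179% (Allo-AT9 S5) of expressed probe sets called, so that 0 of 4 is what the background gives. Without adjustment these shares were 4.44%, 3.54%, 2.51% and 3.1%, and again 0 of 4 TUB probe sets passed.

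For Ta.214.1.S1_at the log2 difference from MPV5 was 0.51 (S4) and 1.13 (S5) for the Allo-AT5 line, and that from MPV9 was -0.52 (S4) and -0.82 (S5) for the Allo-AT9 line (SE 0.58, adjusted p = 1.0 in all). Its partner Ta.214.1.S1_x_at gave 0.35, 1.08, -0.52 and -0.67 in the same order (SE 0.61). The A1 pair gave -0.11, 0.71, 0.46 and 0.63 for Ta.214.2.A1_at (SE 0.63) and -0.09, 0.80, 0.16 and 0.43 for Ta.214.2.A1_x_at (SE 0.71). The intervals were wide. That of Ta.214.1.S1_at in Allo-AT5 S5, the widest departure among these 16 values, ran from -0.15 to 2.40, and even the value nearest to 0, that of Ta.214.2.A1_x_at in Allo-AT5 S4, had an interval from -1.64 to 1.46. A level equal to the MPV is therefore not shown by these arrays. Both arrays of Allo-AT5 S5 lie in the low band, and with the band as a block its differences were 0.66, 0.58, 0.26 and 0.28, while between low-band arrays alone they were 0.59, 0.48, 0.04 and -0.02. With that block the widest departure was the -0.82 (SE 0.23, adjusted p = 0.983) of Ta.214.1.S1_at in the S5 generation of Allo-AT9.

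The mean of the 4 allohexaploid groups minus the mean of both MPVs had smaller errors. It was 0.08 (SE 0.36, 95% interval -0.71 to 0.86) for Ta.214.1.S1_at and 0.06 (SE 0.37, -0.75 to 0.87) for Ta.214.1.S1_x_at. For the A1 pair it was 0.42 (SE 0.39, -0.42 to 1.27) and 0.33 (SE 0.44, -0.62 to 1.28). Of the 4 probe sets 0 were called, beside 0.181% of the expressed probe sets (4.57% unadjusted, 0 of 4 TUB probe sets). Without the group Allo-AT5 S5 the values were -0.01, -0.06, 0.32 and 0.21, again with 0 calls. For the S1 pair the mean near 0 averages positive values in Allo-AT5 and negative values in Allo-AT9. That difference between the lines was -1.49 for Ta.214.1.S1_at (SE 0.72, 95% interval -3.05 to 0.07, adjusted p = 1.0) and -1.31 for Ta.214.1.S1_x_at (SE 0.75), against 0.24 and -0.06 for the A1 pair, and 0 of 4 were called where 0.105% of probe sets were (3.08% unadjusted, 0 of 4 TUB probe sets).

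**Figure D3:**
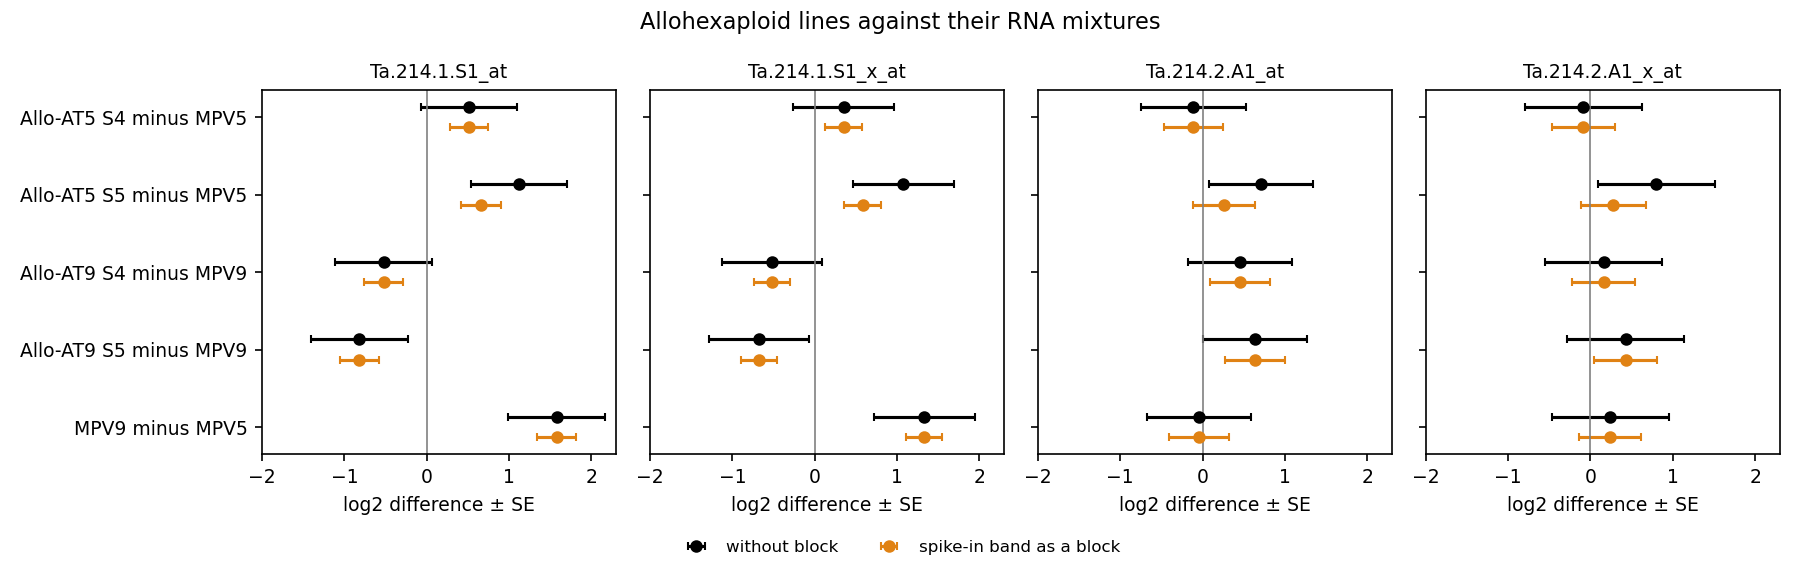
Log2 difference (± SE) of each allohexaploid group from its MPV, and of MPV9 from MPV5, for each TUB probe set, in the fit without a block (black) and in that blocked by spike-in band (orange). With the block the errors shrink and the Allo-AT5 S5 differences move toward 0, while for the S1 pair MPV9 stays above MPV5.

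The mixtures themselves read apart in the S1 pair, but the difference passed the adjusted test only with the band as a block. MPV9 minus MPV5 was 1.58 for Ta.214.1.S1_at (SE 0.58, unadjusted p = 0.0194, adjusted p = 0.607) and 1.33 for Ta.214.1.S1_x_at (SE 0.61, unadjusted p = 0.0493, adjusted p = 0.873), and the arrays of the mixtures did not overlap. For the A1 pair it was -0.05 and 0.24. No TUB probe set was called, beside 1.39% of expressed probe sets, and 2 of 4 passed without adjustment, beside 9.56%. When the band was blocked the S1 pair passed the test, at 1.58 (SE 0.23, adjusted p = 0.00549) and 1.33 (SE 0.22, adjusted p = 0.0117), where 1.82% of probe sets were called. Within the bands, with 1 array on each side, the difference was 1.77 (high) and 1.39 (low) for Ta.214.1.S1_at and 1.52 and 1.15 for Ta.214.1.S1_x_at. The mixtures share TQ27 as a source and contain the RNA of the tetraploids, which differed by 1.46 and 1.54 in the same direction, so this is no independent evidence of the parental difference.

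Generations and lines of the same ploidy were compared as a further test of stability. S5 minus S4 in Allo-AT5 was 0.61, 0.73, 0.82 and 0.89 for Ta.214.1.S1_at, Ta.214.1.S1_x_at, Ta.214.2.A1_at and Ta.214.2.A1_x_at, and in Allo-AT9 it was -0.29, -0.16, 0.18 and 0.27. No TUB probe set was called in either line, and the background was 0% in both, with 1.71% and 1.43% unadjusted (0 of 4 TUB probe sets in each). The Allo-AT5 values compare a group of 2 low-band arrays with a group of 1 array from each band. With the band as a block they came to 0.15, 0.23, 0.37 and 0.36, and between the low-band arrays alone to 0.19, 0.24, 0.19 and 0.15. Allo-AT9 minus Allo-AT5 was 0.47 to 0.54 over the 4 probe sets at S4 and -0.42 to -0.13 at S5, with 0 of 4 called beside 1.63% and 1.49%, and 0 of 4 without adjustment beside 9.19% and 6.86%. At S5 the sign was reversed with the block, at 0.10, 0.08, 0.33 and 0.39.

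The spike-in bands moved with the TUB probe sets. In the fit with the band as a block, arrays of the high band were lower than those of the low band by 0.93 for Ta.214.1.S1_at (coefficient -0.93, SE 0.12, adjusted p = 0.0019), with -0.99 (SE 0.11, adjusted p = 0.00105) for Ta.214.1.S1_x_at, -0.91 (SE 0.18, adjusted p = 0.0108) for Ta.214.2.A1_at and -1.05 (SE 0.19, adjusted p = 0.0073) for Ta.214.2.A1_x_at. All 4 were called lower, beside 9.33% of the expressed probe sets (17.3% in either direction). This comparison was added after the control values had been seen. In groups with an array in each band, the high-band array was lower in 8 of 8 groups for 3 of the probe sets and in 7 of 8 for Ta.214.2.A1_at. Its exception was TTR04, at 0.03, where neither array reached the expression level. The same holds for TTH01, at -0.36, which is counted among the 7. For Ta.214.2.A1_x_at the TTH01 arrays differed by only -0.02. Of the expressed probe sets 4.98% were lower on the high-band array in all 8 groups and 4.81% were higher in all 8.

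The other beta-tubulins shared this behaviour. The fixed list held 6 further tubulin probe sets, of which 5 were expressed. The coefficient of the high band was -1.60 for tubb1 (Ta.212.1.S1_at, adjusted p = 0.00083), -1.34 for tubb2 (Ta.1544.1.S1_at, adjusted p = 0.00743), -0.84 for tubb3 (Ta.2837.1.S1_s_at, adjusted p = 0.00653) and -0.53 for Tubb4 (Ta.28022.1.S1_x_at, adjusted p = 0.005), and each was lower on the high-band array in 8 of 8 groups. Alpha-tubulin TUBA had 0.06 (adjusted p = 0.783) for Ta.812.1.S1_x_at, and the probe sets of elongation factor 1 alpha (TEF1), which brings aminoacyl-tRNA to the ribosome, had 0.17 (Ta.659.2.S1_x_at, adjusted p = 0.533) and -0.03 (Ta.659.3.S1_x_at, adjusted p = 0.902). Of the 4 expressed histone probe sets 3 were also lower on the high band, and 1 was called, that of wcH2B-8 at -0.74 (adjusted p = 0.0268). The mean level of these 4 was 4.47 to 5.27 on high-band arrays and 4.80 to 5.75 on low-band arrays, and over all 18 of the list 9 had a negative coefficient. The part of dividing cells in the TUB differences was not tested, nor was what the bands stand for besides the control level. Among the replicate differences of the 8 groups, 26 of 28 pairs of groups correlated positively over the expressed probe sets, with a median r of 0.343.

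**Figure D4:**
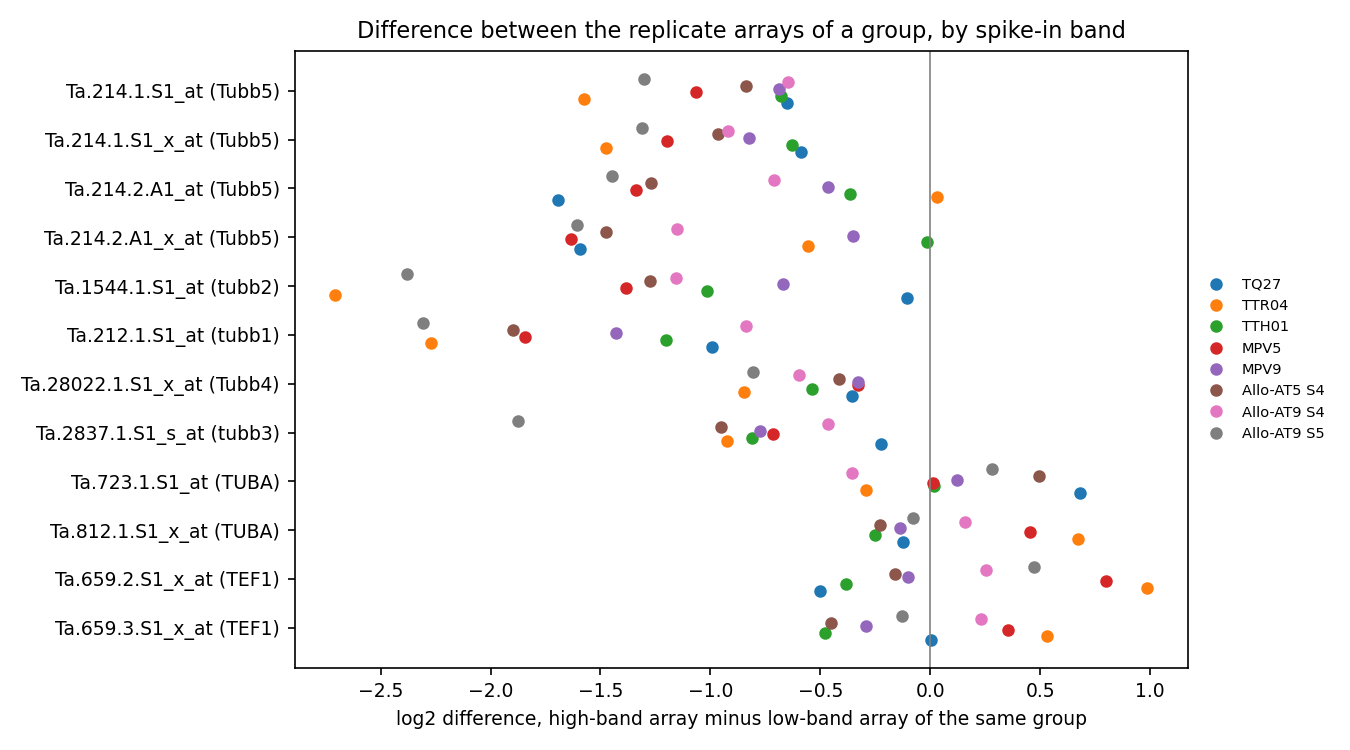
Log2 difference between the high-band and the low-band array of the same group (x axis), for the TUB probe sets (Tubb5), the other tubulins and TEF1 (y axis), with a point per group for the 8 groups that have an array in each band. All points of tubb1, tubb2, tubb3 and Tubb4 and all but 1 of the TUB probe sets lie below 0, and those of TUBA and TEF1 lie on both sides.

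As a measure of use as a reference, the range of the 9 group means was 3.46 log2 units for Ta.214.1.S1_at (11-fold), 3.07 for Ta.214.1.S1_x_at (8.42-fold) and 2.91 for Ta.214.2.A1_x_at (7.53-fold). For Ta.214.2.A1_at the fitted range was 4.60, and it was at least 3.70 because its lowest group was under the expression level. The median over expressed probe sets was 1.10, and 84.9% to 89.2% of them had a smaller range than the other 3 TUB probe sets, while at least 90.8% had a smaller one than Ta.214.2.A1_at. These ranges include the parental differences that singled the cluster out. Within the high band alone (8 groups) and the low band alone (9 groups) the ranges were 3.44 and 3.47 for Ta.214.1.S1_at, 3.05 and 3.09 for Ta.214.1.S1_x_at, at least 2.86 and 4.55 for Ta.214.2.A1_at, and 2.33 and 3.70 for Ta.214.2.A1_x_at.

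The 6 groups of lines and mixtures all combine tetraploid and diploid parents, in the chromosomes of the lines and in the mixed RNA of the MPVs. The share of each genome in the RNA of the lines was not measured. Over these groups alone the ranges were 1.58, 1.33, 0.82 and 0.89 in the order of the previous paragraphs, beside a median of 0.60. A smaller range was found in 70.8% to 92.1% of expressed probe sets. The pooled SD of replicate arrays was 0.66, 0.69, 0.72 and 0.81, beside a median of 0.375, and 85.7% to 91.8% of expressed probe sets had a smaller one. In every group except Allo-AT5 S5 the replicates are an array of each band. This SD therefore contains the band difference, with coefficients of -0.91 to -1.05, and is not a measure apart from it. The TUB probe sets were thus above the median expressed probe set in both of these measures. Differences between the parents do not enter them directly. The SD includes the replicate arrays of the parents, however, and the mixtures contain parental RNA. For the S1 pair the range over the 6 groups, 1.58 and 1.33, is MPV9 minus MPV5. In that pair it is therefore not separate from the difference between the tetraploids. For the A1 pair it is S5 minus S4 in Allo-AT5, where both S5 arrays lie in the low band.

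Of the other candidate references, TEF1, Tubb4 and TUBA varied less than TUB in all 3 measures, and tubb1, tubb2 and tubb3 did not. Among these measures the replicate SD contains the band difference. The range of the 9 group means was 0.46 for TEF1 by Ta.659.3.S1_x_at (8.06% of expressed probe sets had a smaller one) and 0.80 by Ta.659.2.S1_x_at (33.5%), 0.59 for Tubb4 (Ta.28022.1.S1_x_at, 17.1%) and 0.78 for TUBA by Ta.812.1.S1_x_at (32.0%). Over the 6 groups of lines and mixtures these 4 probe sets had ranges of 0.28 to 0.47, and their replicate SD was 0.217 to 0.375. Within the high and the low band the range was 1.54 and 0.50 for Ta.659.2.S1_x_at and 0.64 and 0.55 for Ta.659.3.S1_x_at. It was 0.76 and 0.50 for Tubb4 and 0.80 and 0.89 for TUBA. For tubb1, tubb2 and tubb3 the range of the 9 group means was 1.87, 1.70 and 1.67, below that of TUB, which contains the values that chose the cluster. Their ranges over the 6 groups were 1.54, 1.49 and 1.30, within the span of those of TUB, and their replicate SD was 1.12, 1.04 and 0.638. In tubb1 and tubb2 the upper end of the range over the 6 groups was Allo-AT5 S5, with both arrays in the low band. None of the 5 expressed tubulins of the list was called between TTR04 and TQ27 beside 35.1% of probe sets, and 0 of 5 passed without adjustment, beside 47.6%. Of the 2 TEF1 probe sets 0 were called there and 1 passed without adjustment. In TTH01 against TQ27, where 34.5% were called, TUBA alone of the 5 was called, higher by 0.78 (SE 0.23, adjusted p = 0.0308). Without adjustment 2 of 5 passed, beside 46%, the other being tubb3 (Ta.2837.1.S1_s_at), which was at 9.03 in TQ27 and 10.7 in TTH01, a difference of 1.67 (SE 0.57, adjusted p = 0.0599). TUBA read 10.8 and 10.7 in TQ27 and 11.4 and 11.7 in TTH01. The methods name a GenBank entry for the tubulin reference of quantitative RT-PCR. The array annotation attaches it to this alpha-tubulin probe set, not to a TUB probe set. That tubulin was used together with Gadph, actin and Elf, and the lines were compared with mixtures of parental RNA. Against the MPV, Ta.812.1.S1_x_at differed by -0.02 and 0.01 in Allo-AT5 (S4, S5) and by -0.16 and -0.22 in Allo-AT9. No probe set of actin, GAPDH or ubiquitin was found by symbol in the annotation used.

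**Figure D5:**
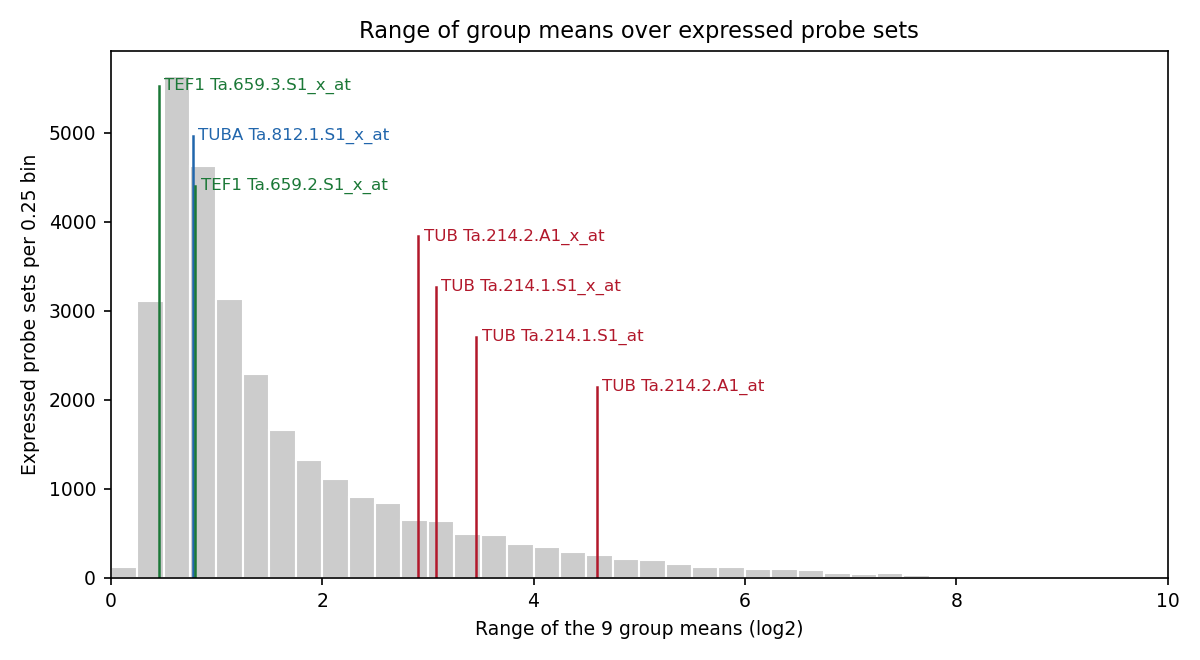
Number of expressed probe sets (y axis) by the range of their 9 group means (x axis, log2 units), with vertical lines for the TUB probe sets (red), TUBA (blue) and TEF1 (green), whose heights carry no value. The TUB probe sets lie at 2.91 to 4.60, the last a fitted value whose lower bound is 3.70, and TEF1 and TUBA lie at 0.46 to 0.80.

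A ratio to TUB between the parents takes over the opposite levels that chose the cluster, so the directions of the shifts between the parents are fixed by that choice and their sizes are given as a description. TEF1 by Ta.659.2.S1_x_at was 0.80 higher in TTR04 than in TQ27 by its own level. Relative to Ta.214.1.S1_at the same difference became -1.20, and relative to Ta.214.2.A1_at, which was under the expression level in both tetraploids, it became at least 4.50. For TTH01 against TQ27 it was 0.52 by its own level, -2.94 relative to Ta.214.1.S1_at and at least 4.22 relative to Ta.214.2.A1_at. Between lines and mixtures the shift was smaller. TEF1 by this probe set changed from 0.21 to 1.03 in Allo-AT9 S5 minus MPV9 when related to Ta.214.1.S1_at and to -0.42 when related to Ta.214.2.A1_at, and in Allo-AT5 S4 minus MPV5 it changed from 0.00 to -0.52 and 0.11. These are shifts in log2 units computed from group means, with no test.

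A probe set annotated to tubulin complex assembly came from the paper's lists of genes with altered expression, which were drawn from these same arrays. Its differences between the parents and from the MPV are therefore descriptions without a test. It was higher in both tetraploids than in TQ27, by 1.87 in TTR04 and by 2.51 in TTH01 (SE 0.57). Against the MPV it differed by 0.46 and 0.06 in Allo-AT5 (S4, S5) and by 0.25 and -0.11 in Allo-AT9 (SE 0.57). Among the tubulins of the list and TEF1, 0 probe sets were called in any comparison of a line with its MPV. The share called over expressed probe sets was 0% to 0.191% in these comparisons, so that 0 calls are what the background gives.

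Patterns like those of TUB were also seen in other probe sets, among the 29674 that were expressed. Over the 9 group means, 845 expressed probe sets had a Pearson's r above 0.9 with Ta.214.1.S1_at, 504 with Ta.214.1.S1_x_at, 860 with Ta.214.2.A1_at and 908 with Ta.214.2.A1_x_at. Those with a symbol that were nearest to Ta.214.1.S1_at were LOC100037655 (r = 0.976), LOC606363 (r = 0.968) and LOC542771 (r = 0.949), and the same 3 were nearest to Ta.214.1.S1_x_at. Nearest to Ta.214.2.A1_at were LOC606369 (r = 0.985), LOC780670 (r = 0.984) and LOC543254 (r = 0.979), and to Ta.214.2.A1_x_at LOC543420 (r = 0.972), LOC606369 (r = 0.967) and LOC780670 (r = 0.960). Among probe sets without a symbol, Ta.11056.1.A1_at was nearest to both of the S1 pair (r = 0.995 and 0.992), Ta.681.1.S1_at to Ta.214.2.A1_at (r = 0.993) and TaAffx.61040.2.S1_at to Ta.214.2.A1_x_at (r = 0.985). The points of these correlations share arrays and RNA pools, and they contain the parental levels that chose the cluster.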

How the data were processed

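Gene expression was measured in 18 samples on the Affymetrix wheat array. The authors normalized the raw data by RMA with limma in R and deposited log2 values, which were used unchanged. The submitters' notes also name MAS5 and GCOS, and detection flags and raw intensities were not used here. Tool versions are not given in the sources used here. Values ran from 1.37 to 14.46 with array medians of 4.00 to 4.11. The number of arrays limits the precision, and the median SE of a log2 difference was 0.35.

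Of 61290 probe sets, 111 controls were left out. The expression level of 4.54 stands in for the detection flags and was set so that about as many probe sets pass as were detected by those flags. The 9 groups were fitted in 1 model with limma 3.58.1 (R 4.3.3), with empirical Bayes moderation (9 residual and 2.99 prior degrees of freedom), with Benjamini-Hochberg adjustment across the 61179 others. A probe set was called at an adjusted p under 0.05 if expressed in at least 1 group compared. Shares called refer to probe sets expressed in at least 1 of these groups. A least difference is the distance of the higher group from 4.54 where both arrays of the other group are under it. Arrays with a mean BioC control of at least 8 formed the high band. The procedure was tested on simulated data. Symbols came from the array's platform annotation, and 1272 of 1273 matched a RefSeq gene.

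Probe sets named were the 4 TUB probe sets, the other tubulins and house-keeping genes, a probe set of tubulin complex assembly, and for each TUB probe set the 3 with and the 3 without a symbol nearest to it in group means, of which the first is given for those without. Members and lists were chosen with earlier results of these data known. Replicate numbers were not taken to pair the samples. Other normalizations, expression levels, fits and left-out arrays were tried as alternatives.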

Additional observations from a re-analysis of the deposited data

Results flagged for a closer look

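In Ta.214.1.S1_at all 4 Allo-AT5 arrays lay above the mean of MPV5 and all 4 Allo-AT9 arrays lay below the mean of MPV9. Single arrays of lines and mixtures overlapped. An MPV5 array read 6.91 and an Allo-AT5 S4 array 6.47, and an MPV9 array read 7.61 and an Allo-AT9 S5 array 7.79. The departure of Allo-AT9 less that of Allo-AT5 was -1.49, which did not pass the direct test (limma, unadjusted p = 0.0596, adjusted p = 1.0). When the spike-in band was blocked it was -1.26 (adjusted p = 0.515). In Ta.214.1.S1_x_at 3 of 4 and 4 of 4 arrays lay on these sides.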

How the results depend on the processing

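The 44 differences tested for the TUB probe sets gave 640 values under the alternatives, of which 636 kept their side of the threshold, 4 newly passed it and 0 lost a call. The 4 are those of the S1 pair in MPV9 minus MPV5, where 2 TUB probe sets were called when the spike-in band was blocked and 2 with an unadjusted p, against 0 otherwise. Leaving out each replicate in turn gave 0 to 0 calls in every comparison, and MPV9 minus MPV5 then ran from 1.04 to 2.11 for Ta.214.1.S1_at and from 0.74 to 1.93 for Ta.214.1.S1_x_at. The adjusted p of the first ran from 0.00549 to 1.0 over the alternatives. Of the differences that were not called, 26 changed sign under some alternative (59 values, 50 of them with a replicate left out), and the largest of these was 0.80. The labels do not say that replicate numbers pair the samples, and the replicate deviations of 18 of 36 pairs of groups correlated above 0.1 (r -0.31 to 0.85). The fit with the replicate number as a block called 0 TUB probe sets (lowest adjusted p = 0.199), and no comparison changed its call by this block. The range of group means moved with the arrays used. It was 2.79 for Ta.214.1.S1_at from replicate 1 alone and 4.13 from replicate 2 alone, and from replicate 1 alone it was 5.63 for Ta.214.2.A1_at (fitted, with its lowest group under 4.54) and 3.92 for Ta.214.2.A1_x_at. Replicate 1 is a high-band array in 7 groups and a low-band array in TQ27 and Allo-AT5 S5. Levels under 4.54 are bounds, and 2 arrays a group leave intervals of over 2 log2 units for a difference.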
